A study of Mus musculus with 8 samples.

Results

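The collagens described here are the genes Col12a1, Col14a1 and Col16a1 of fibril-associated collagens, Col13a1, Col17a1, Col23a1 and Col25a1 of transmembrane collagens, and Col8a1 and Col8a2, whose chains form short-chain network collagens and belong to neither class. They were chosen by gene family with the age differences on these same arrays in view, in particular the opposite differences of Col14a1 and Col12a1. All 9 were measured, by 16 probe sets, among 17097 genes in all, and where a gene had several, the brightest on average stands for it. Dermal fibroblasts came from 4 young mice at an age of 2 months and from 4 old mice at 18 months, and each animal had its own array. Collection took 1 animal of each age per day, and the labels do not tie the animals' numbers to days. In both groups the subdermis was taken off, the skin was digested with collagenase, and cells with Pdgfra and CD34 but without CD45, CD117, CD24, CD31 or EpCam were sorted, so the values describe this sorted population and not whole skin. The labels name no strain, sex, genotype or treatment, and age is the 1 factor by which the groups differ in them. Values are log2 levels, normalized between arrays, so a difference of 1 is a doubling.

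Fibril-associated collagens do not form fibres themselves. Their short triple-helical stretches, broken by flexible parts, lie on the surface of fibres of type I and type III collagen and carry large globular ends that reach into the space between fibres. Transmembrane collagens span the plasma membrane once, with the collagenous part outside the cell, and furin-type and ADAM proteases can release that part. In skin, collagen XII and XIV coat the fibres of the dermis, and collagen XVII holds basal keratinocytes to the basement membrane.

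The sorted cells carried the markers of their label. The mean level of 11 fibroblast markers, among them Pdgfra, Cd34, Col1a1 and Dcn, lay between 11.28 and 11.40 in young and between 11.19 and 11.26 in old. Of these, Col3a1 was the 1 past the threshold, with a difference of -0.28, and of -1.86 on its most variable probe set. Of the 5 genes of the surface proteins sorted against, 0 passed by limma, and 3 had an unadjusted p under 0.05. Cd24a, which came closest, differed by -0.67 (adjusted p = 0.0515). Keratinocyte markers were present and uneven, as given beside Col17a1. As a guide to the floor of the array, 24 genes restricted to tissues such as retina, testis and pituitary had a median level of 4.14, with a 90th percentile of 5.66, and 2 of them fell, 0 rose by limma (1 with an unadjusted p under 0.05 higher in old), with Opn1sw at -0.46. A level also depends on the probes, so the order of levels between genes says nothing of their amounts, also where a marker is named as the brightest probe set of its list.

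Col14a1 and Col13a1 were much lower in old fibroblasts, Col16a1 and Col25a1 were slightly lower, and Col12a1 was higher. Among the 9 genes, 1 rose and 4 fell past an adjusted p of 0.05 in the limma fit over all genes, in which 17.5% of all genes passed, 9.87% higher and 7.66% lower in old. The same 5 genes had no overlap between the ages, 1 with all old values above the young ones (11.7% of all genes), 4 with all below (9.66%), against 21.3% of all genes in either direction. Because the genes were chosen with this contrast in view, these counts describe them and test nothing, and no p-value is given for them. Their median difference was 0.03, against 0.01 over all genes, with a range from -2.69 to 1.21. RNA was measured in bulk, so fewer cells of a type and less RNA per cell cannot be told apart.

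**Figure D1:**
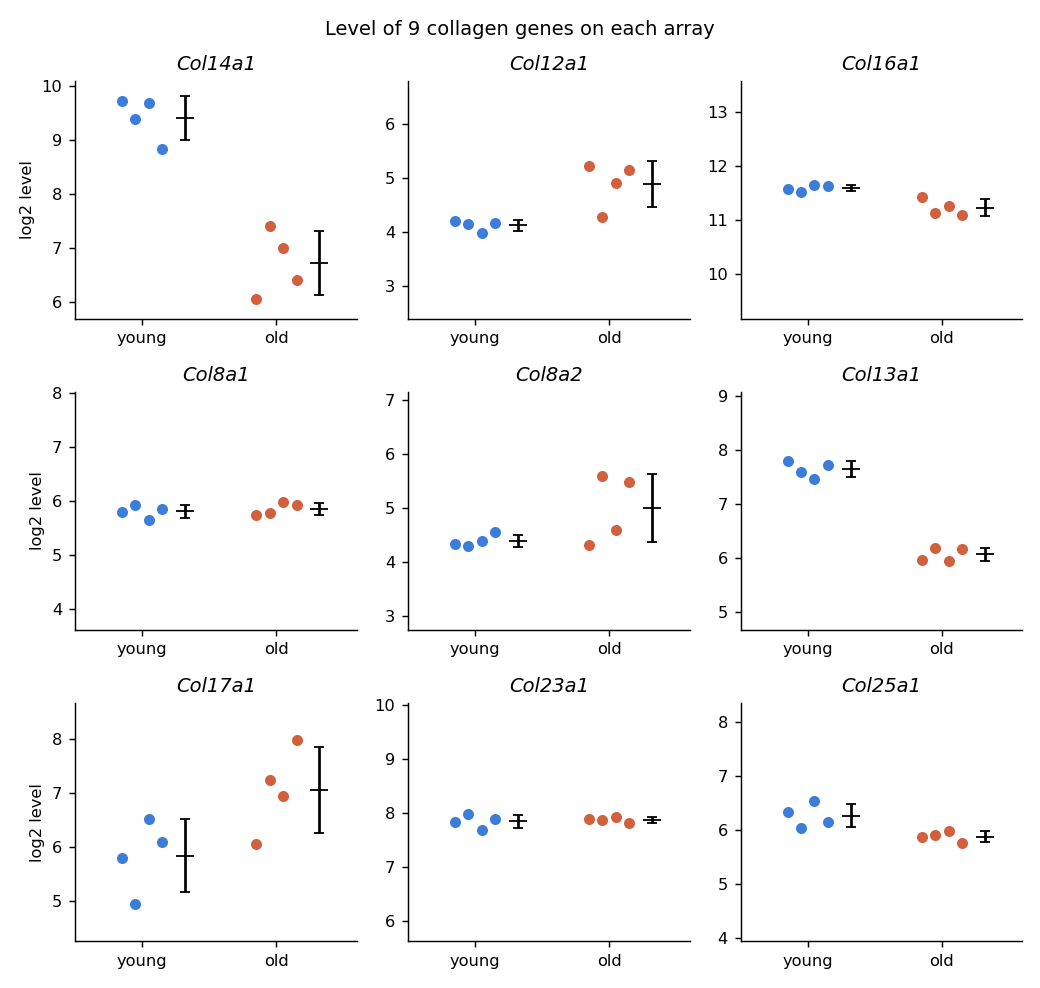
Level of each collagen gene (log2, vertical axis) on each of the 4 young (blue) and 4 old (orange) arrays, with the mean and SD as black marks beside the points; every panel spans the same number of log2 units. Col14a1 and Col13a1 separate the ages widely, whereas Col8a1 and Col23a1 lie at the same height in both.

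An index of non-specific signal moved with age as well. It averages 8 GC-rich control probe sets and lay at 6.62, 6.34, 6.42 and 6.36 on the young arrays and at 5.53, 5.82, 6.18 and 5.78 on the old ones. All old values were below all young values, a difference of -0.61. With this index as a covariate the SEs of the 9 genes grew between 1.63 and 2.06 times, and 0.977% of all genes passed. Col13a1 was the 1 of the 9 collagens past the threshold in that fit. Its difference was -1.55 ± 0.19 (SE) there, against -1.58 ± 0.09 (SE) without the covariate.

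**Figure D2:**
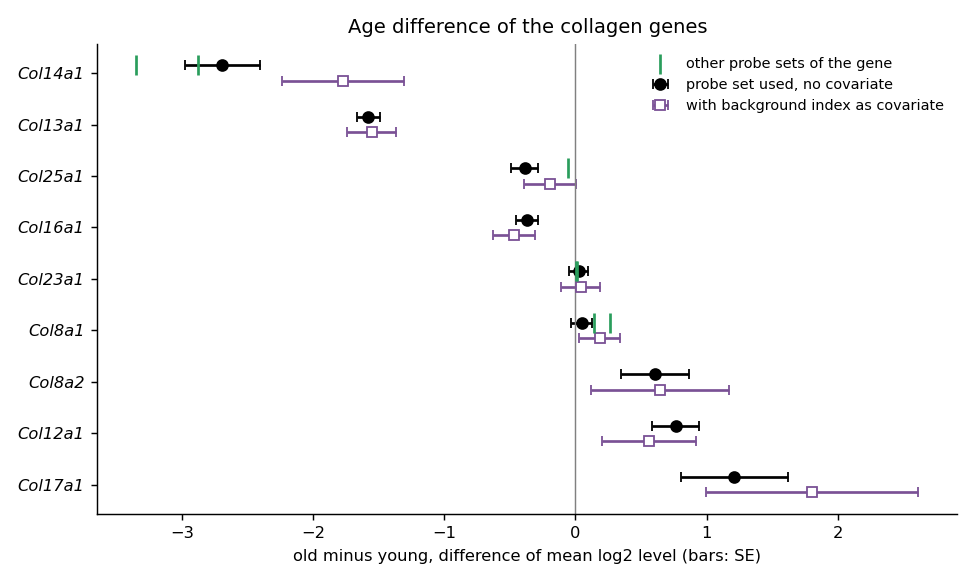
Difference between the mean log2 levels of old and young arrays (horizontal axis) for each collagen gene, with its SE: black circles without a covariate, open squares with the index of non-specific signal as a covariate, green ticks for other probe sets of the same gene. Col14a1 moves from -2.69 to -1.77 with the covariate, and Col13a1 stays near -1.58.

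Col14a1 encodes the single chain of collagen XIV, which coats collagen fibres and limits their lateral growth. It lay at 9.72, 9.39, 9.69 and 8.84 in the young animals and at 6.06, 7.40, 7.0 and 6.41 in the old ones. The lowest young value was 1.44 above the highest old value. The means were 9.41 ± 0.41 and 6.72 ± 0.60 (SD, n = 4 each), which differ by -2.69 ± 0.29 (SE) on the log2 scale, or 6.46-fold. Of the 9 collagens, Col14a1 fell the most.

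The other probe sets of Col14a1 gave the same picture with larger differences. The first of them fell from 9.35 ± 0.48 to 6.47 ± 0.48 (SD, n = 4 each), a difference of -2.87. The second went from 8.78 ± 0.53 to 5.43 ± 0.43 (SD, n = 4 each), a difference of -3.35 or 10.2-fold. On all 3 probe sets young replicate 4 was the lowest young array and old replicate 2 the highest old one. With the index of non-specific signal as a covariate the difference of Col14a1 was -1.77 ± 0.47 (SE), and it no longer passed the threshold. Leaving out single arrays gave differences between -2.92 and -2.47.

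Col12a1 encodes collagen XII, which bridges fibres in tissues under tension, and moved the other way. It lay at 4.19, 4.14, 3.97 and 4.16 in the young animals and at 5.21, 4.27, 4.90 and 5.14 in the old ones. Old replicates 1, 3 and 4 stood clear of the young ones, and old replicate 2 lay just above them. The means were 4.12 ± 0.10 and 4.88 ± 0.43 (SD, n = 4 each), a difference of 0.76 ± 0.18 (SE) or 1.70-fold. The young mean was at the median of the 24 tissue-restricted genes, where the array compresses differences, and Col12a1 had a single probe set. Without old replicate 2 the difference was 0.97, and with the covariate it was 0.56 ± 0.36 (SE) and did not pass.

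Set against each other on the same array, the pair diverged in every old animal. The log2 level of Col12a1 minus that of Col14a1, each taken relative to its young mean, was -0.24, 0.05, -0.43 and 0.61 on the young arrays. On the old arrays it was 4.45, 2.17, 3.20 and 4.03. The change with age was 3.46, with SDs of 0.45 in young and 1.01 in old (n = 4 each), and 2.33 with the covariate. Among the old animals the order of the 2 genes was opposite: replicate 1 had the lowest Col14a1 and the highest Col12a1, followed by replicates 4, 3 and 2. On the dimmest Col14a1 probe set, however, old replicate 4 (5.09) lay below old replicate 1 (5.16). Among the young animals no such order was seen. The pair was chosen for its opposite differences, and no test was made of it.

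**Figure D3:**
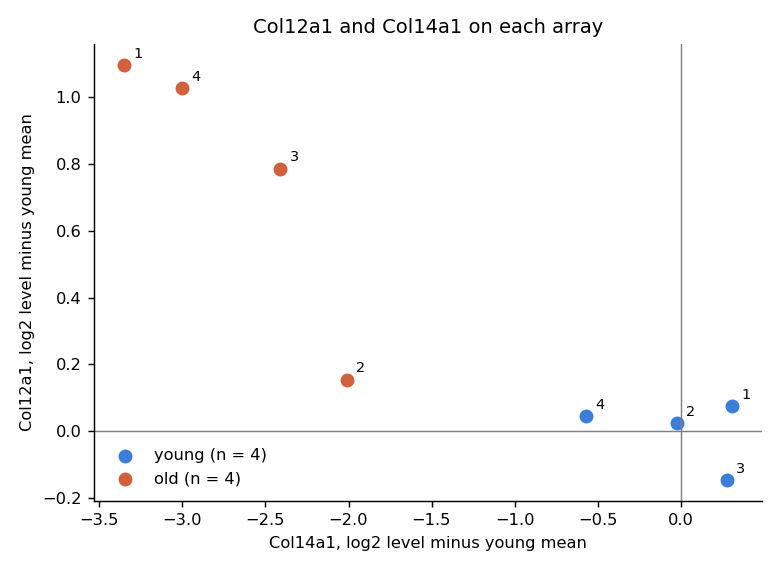
Col12a1 (vertical axis) against Col14a1 (horizontal axis), both as log2 level minus the young mean, for 4 young (blue) and 4 old (orange) arrays, numbered by specimen. Old arrays spread from upper left (replicate 1, at -3.35 for Col14a1 and 1.10 for Col12a1) towards replicate 2, while young arrays stay near 0.

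The genes with the profile most like that of Col14a1 over the 8 arrays are given as a description. Both ages enter the likeness, so age differences like that of the collagen follow from how the genes were picked, here and for Col12a1. Likeness was the root mean square distance between log2 profiles, each centred on its own mean, over 15475 genes without predicted transcripts. The profile of Col14a1 itself had a root mean square of 1.42 about its mean. Col4a5, a basement membrane collagen, was nearest at 0.43, followed by the noradrenaline transporter Slc6a2 at 0.46, Armcx4 at 0.52 and the actin-bundling protein Fscn1 at 0.54. Their age differences were -2.51, -2.55, -1.98 and -2.09. For Col12a1, with a root mean square of 0.47, the nearest were the lipid phosphatase Plpp2 at 0.16, and Plcxd2, the phosphoribosyl pyrophosphate synthetase Prps2 and Jade1, each at 0.17. These differed by 0.79, 0.76, 0.69 and 0.94. Likeness here covers both ages together and need not hold between animals of the same age. Among the old arrays Col14a1, Col4a5 and Armcx4 were highest in replicate 2, and Slc6a2 and Fscn1 in replicate 4. Old values of Col4a5 (4.21 to 4.41) and Armcx4 (4.43 to 4.92) lay below 5.66, the 90th percentile of the tissue-restricted genes. There the array compresses differences, so the order of old arrays for these genes says little.

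Col16a1, of the fibril-associated collagen XVI that lies near microfibrils of the upper dermis, differed by less and with little spread. It lay at 11.57, 11.52, 11.65 and 11.62 in young and at 11.43, 11.12, 11.25 and 11.09 in old. The groups were 0.09 apart, with old replicate 1 nearest to the young arrays. Col16a1 fell by 0.37 ± 0.08 (SE) on the log2 scale or 1.29-fold, from 11.59 ± 0.06 to 11.22 ± 0.15 (SD, n = 4 each). With the covariate the difference was -0.47 ± 0.16 (SE), which did not pass.

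Col8a1 and Col8a2 encode the chains of collagen VIII, which forms hexagonal networks beneath endothelia. Col8a1 lay between 5.66 and 5.93 in young and between 5.74 and 5.98 in old, and differed by 0.05 ± 0.08 (SE). Its other probe sets differed by 0.14 and 0.27 at means of 3.85 to 4.67, and on the dimmest of them all 4 old arrays were above the young ones. Col8a2 lay at 4.34, 4.30, 4.38 and 4.55 in young and at 4.32, 5.59, 4.60 and 5.49 in old. Old replicates 2 and 4 stood about 1 unit above the rest, and old replicates 1 and 3 lay near the young arrays. The difference of Col8a2 was 0.61 ± 0.26 (SE), which did not pass, although it did without old replicate 1 (0.83). With the covariate it was 0.64 ± 0.53 (SE). All values of Col8a2, from a single probe set, lay below 5.66, the 90th percentile of the tissue-restricted genes.

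Among the transmembrane collagens, Col13a1 separated the ages with the least spread. Collagen XIII sits at cell adhesions and at the neuromuscular junction. Col13a1 lay at 7.80, 7.61, 7.47 and 7.73 in young and at 5.97, 6.20, 5.96 and 6.17 in old. The gap of 1.27 between the groups was wider than the range within either, 0.33 in young and 0.24 in old. Col13a1 fell from 7.65 ± 0.14 to 6.07 ± 0.13 (SD, n = 4 each), 2.98-fold. Leaving out single arrays gave differences between -1.64 and -1.53. The profiles nearest to that of Col13a1, looked up after its values were seen, were those of the growth cone protein Basp1, at a distance of 0.15, and of the imprinted non-coding transcript Meg3, at 0.16.

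The set of promoter sequences used here (GRCm38.p6) held 7 of the 9 genes and had no entry for Col12a1 or Col14a1. Those of the members that fell are shown. Each run is the 250 bases before the annotated start, 5′ to 3′ on the gene's strand. Capitals mark matches on either strand to any of 5 motifs. The TATA box was searched as TATAAA. The CCAAT box was searched by the letters of its name, and the GC box as GGGCGG. The AP-1 site was searched as TGANTCA and the E-box as CACGTG.
Col13a1 (chr10:61979109-61979358, minus strand): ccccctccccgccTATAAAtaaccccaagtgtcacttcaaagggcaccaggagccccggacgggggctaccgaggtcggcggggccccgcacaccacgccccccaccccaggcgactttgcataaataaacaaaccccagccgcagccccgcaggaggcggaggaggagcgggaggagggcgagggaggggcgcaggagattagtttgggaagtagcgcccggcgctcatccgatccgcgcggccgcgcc
Col16a1 (chr4:130047590-130047839, plus strand): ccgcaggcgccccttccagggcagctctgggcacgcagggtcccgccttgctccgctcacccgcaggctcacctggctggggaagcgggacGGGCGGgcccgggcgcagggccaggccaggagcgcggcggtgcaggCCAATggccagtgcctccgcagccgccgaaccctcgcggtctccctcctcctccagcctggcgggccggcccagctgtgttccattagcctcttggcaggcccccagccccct
Col25a1 (chr3:130180595-130180844, plus strand): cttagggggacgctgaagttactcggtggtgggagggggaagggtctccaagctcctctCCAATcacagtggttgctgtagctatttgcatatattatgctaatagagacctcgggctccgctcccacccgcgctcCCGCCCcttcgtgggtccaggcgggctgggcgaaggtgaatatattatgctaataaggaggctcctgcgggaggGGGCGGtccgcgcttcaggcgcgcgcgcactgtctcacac

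The 3 promoters share a high content of G and C, 68.8% in Col13a1, 75.6% in Col16a1 and 60.4% in Col25a1, against a median of 52.4% over 32851 promoters. Members that did not fall were also above this median: Col8a2 with 70.0%, Col23a1 with 66.0% and Col8a1 with 60.8%. Col16a1 and Col25a1 each hold a CCAAT box, 113 and 191 bases before the start. Col16a1 holds 1 GC box, 159 bases before the start, and Col25a1 holds 2, at 114 and 40 bases. Col13a1 holds neither motif, and its 1 match is to TATAAA, 237 bases before the start. Among all promoters of this length 33.8% hold a CCAAT box, 32.7% a GC box and 12.4% a TATA box. Of the 7 members with a promoter sequence 3, 5 and 2 held them. AP-1 letters, found in 6.75% of promoters, and E-box letters, in 6.02%, were in 0 of the 7 members. The promoter of Col17a1 differs in having 46.0% G and C, TATA matches 140 and 91 bases and a CCAAT match 31 bases before the start. Col8a1 and Col8a2 hold 4 GC box matches each, and in Col8a2 those nearest the start overlap. These matches describe letters and not bound sites.

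Col17a1, of the hemidesmosomal collagen XVII of basal keratinocytes, varied most between animals. It lay at 5.80, 4.94, 6.52 and 6.10 in young and at 6.05, 7.24, 6.94 and 7.98 in old. The groups overlapped, since old replicate 1 lay below young replicates 3 and 4. The difference was 1.21 ± 0.41 (SE), with SDs of 0.67 and 0.80 (n = 4 each), and did not pass. It ranged from 0.90 to 1.55 when single arrays were left out, and passed without old replicate 1.

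Keratinocyte markers were high and low on the same arrays. The mean of 10 markers, each centred on its own mean, was -0.43, -0.84, 0.35 and -0.65 on the young arrays and -0.11, 0.14, 0.51 and 1.03 on the old ones. In both ages the same arrays were highest and lowest for the score and for Col17a1: young replicates 3 and 2, and old replicates 4 and 1. The arrays between these, young replicates 1 and 4 and old replicates 2 and 3, stood in opposite order for the score and for Col17a1. The mean level of the list ran from 7.16 to 8.35 in young and from 7.89 to 9.03 in old. Of the 10 markers 3 rose and 1 fell. The basal keratin Krt14 rose by 1.65 (adjusted p = 0.00469), Krt5 by 1.04 (adjusted p = 0.0379) and Perp, a protein of cell junctions, by 1.62 (adjusted p = 0.0382). Trp63, the basal transcription factor, fell by 0.41 on the log2 scale (adjusted p = 0.0237). Krt5 lost its call when any 1 of 6 arrays, old replicate 4 among them, was left out, and so did Perp, with adjusted p up to 0.0949 and 0.103. Trp63 lost its call with any 1 of 5 arrays left out (adjusted p up to 0.0667), and its most variable probe set differed by 0.17 in the other direction. With the covariate none of the 10 markers passed by limma, with adjusted p of 0.234 for Krt14, 0.278 for Krt5, 0.329 for Perp and 0.345 for Trp63. Epcam, whose protein was sorted against, lay between 4.19 and 4.32 in young and between 4.43 and 4.99 in old, near the tissue-restricted genes. The part of keratinocyte RNA in the level of Col17a1 was not tested.

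**Figure D4:**
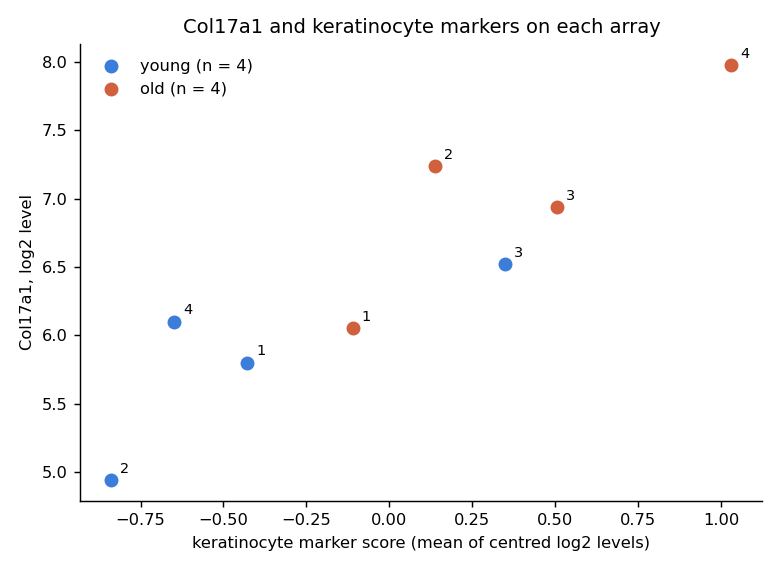
Log2 level of Col17a1 (vertical axis) against the keratinocyte marker score (horizontal axis, mean of 10 centred log2 levels) for 4 young (blue) and 4 old (orange) arrays, numbered by specimen. The array with the highest score, old replicate 4 at 1.03, has the highest Col17a1 at 7.98, and young replicate 2 is lowest in both.

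The profiles nearest to that of Col17a1, looked up after its values were seen, were those of Lypd3, a surface protein of stratified epithelium, at a distance of 0.25, and of Ly6g6c at 0.33. Their differences were 1.36 and 1.16, with overlapping groups in both. Of 7 measured hemidesmosome partners of collagen XVII, 2 rose, 0 fell by limma (and 0 at an unadjusted p under 0.05) and 5 did not pass, with a median difference of 0.20. The plakins Dst (0.46 ± 0.07 SE, adjusted p = 0.00148) and Plec (0.28 ± 0.08 SE, adjusted p = 0.0295) rose, and fibroblasts express both. On its most variable probe set Dst differed by 1.65. Plec lost its call when any 1 of 6 arrays was left out, with adjusted p up to 0.0756, and with the covariate neither passed (adjusted p = 0.192 for Dst and 0.513 for Plec). Itga6, a subunit of the hemidesmosomal integrin, differed by 0.94 (adjusted p = 0.0714), with its highest value, 7.21, in old replicate 4. Its partner Itgb4 differed by 0.20 (adjusted p = 0.495).

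Col23a1, of a transmembrane collagen found in epidermis and its appendages, lay at the same level at both ages. Its values ran from 7.69 to 7.99 in young and from 7.82 to 7.94 in old, with a difference of 0.02 ± 0.07 (SE). The other probe sets differed by 0.01 and 0.02. Col23a1 was thus the member with the smallest difference on the probe set used, and its old animals varied less than the young ones (SD 0.05 against 0.12, n = 4 each).

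Col25a1 encodes a transmembrane collagen of neurons whose released part binds amyloid. It lay at 6.32, 6.04, 6.53 and 6.15 in young and at 5.86, 5.90, 5.98 and 5.75 in old, with the groups 0.06 apart. Col25a1 fell by 0.39 ± 0.10 (SE) on the log2 scale. Its second probe set, at 3.75 and 3.69, differed by -0.06 with overlapping groups. That probe set lay below 4.14, the median of the tissue-restricted genes, where the array compresses differences. With single arrays left out the difference on the probe set used ran from -0.46 to -0.30. It passed in 3 of 8 cases, namely without young replicates 2 or 4 or old replicate 3. With the mean of both probe sets it was lost as well, and with the covariate (-0.19 ± 0.20 SE).

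Genes around the collagens were tested in the same fit. Of 23 measured fibril partners, the core collagens and proteins of the fibre surface, 7 fell, 1 rose and 15 did not pass (median -0.16, against 0.01 over all genes). The type V chains that start fibres fell together: Col5a3 by 1.02 ± 0.16 (SE, adjusted p = 0.00212), Col5a2 by 0.65 ± 0.09 (SE, adjusted p = 0.00127) and Col5a1 by 0.64 ± 0.07 (SE, adjusted p = 2.57e-04). On the most variable probe set of each, Col5a2 differed by -1.77, Col5a1 by -1.36 and Col5a3 by -1.02, so the order of these chains depends on the probe set. Thbs2, a matricellular protein that affects fibre shape, rose by 0.57 ± 0.10 (SE, adjusted p = 0.00304). Among the leucine-rich proteoglycans of the fibre surface, Aspn fell by 0.48 on the log2 scale (adjusted p = 0.006) and Prelp by 0.36 (adjusted p = 0.0105), while Dcn (-0.09), Lum (-0.16) and Fmod (-0.18) did not pass, nor did Tnxb (0.08) and Comp (-0.06). With the covariate Col5a1 (-0.80) and Col5a2 (-0.91) still passed, and Col5a3 (-0.92, adjusted p = 0.259), Thbs2 (0.53, adjusted p = 0.279), Aspn (adjusted p = 0.334) and Prelp (adjusted p = 0.146) did not.

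Of 10 other non-fibrillar collagens 2 fell, 0 rose by limma (and 0 at an unadjusted p under 0.05) and 8 did not pass (median -0.10). Those that fell were Col18a1 (-0.60 ± 0.07 SE, adjusted p = 3.66e-04) and Col15a1 (-0.57 ± 0.06 SE, adjusted p = 2.56e-04), the multiplexins of basement membrane zones. The remaining fibril-associated chains on the array, Col9a1, Col9a2, Col9a3, Col19a1, Col20a1 and Col22a1, differed by -0.20 to 0.10 on the probe sets used and did not pass. On its most variable probe set Col9a3 differed by 0.58. Means of the other chains lay below 5.66, the 90th percentile of the tissue-restricted genes, where the array compresses differences. Of 6 other membrane proteins with a collagenous domain, Colec12, a scavenger receptor, rose by 0.66 ± 0.12 (SE, adjusted p = 0.004) and Msr1, the macrophage scavenger receptor, fell by 0.41 ± 0.10 (SE, adjusted p = 0.0166). The other 4 did not pass, and the list median was 0.00. All 4 of these changes lost their calls with the covariate. The means of Msr1, 5.16 in young and 4.75 in old, also lay below 5.66.

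Of 10 collagen receptors 2 rose, 1 fell and 7 did not pass (median 0.06). Mrc2, which takes up collagen for breakdown, fell by 0.64 ± 0.08 (SE, adjusted p = 5.88e-04). Ddr2, a receptor kinase for fibrillar collagen, rose by 0.35 ± 0.09 (SE, adjusted p = 0.0217) and the adhesion receptor Adgrg1 by 0.44 ± 0.12 (SE, adjusted p = 0.0257). Without single arrays Ddr2 lost its call in 3 cases (adjusted p up to 0.0626) and Adgrg1 in 5 (up to 0.0688). The means of Adgrg1, 5.03 in young and 5.47 in old, lay below 5.66, the 90th percentile of the tissue-restricted genes. Of 8 proteases and inhibitors of ectodomain release, Furin fell by 0.36 ± 0.07 (SE, adjusted p = 0.0077), Adam9 rose by 0.46 ± 0.11 (SE, adjusted p = 0.0182) and 6 did not pass (median 0.16). With the covariate none of these 5 genes passed.

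Of 22 genes of collagen maturation 14 fell, 0 rose by limma (and 0 at an unadjusted p under 0.05) and 8 did not pass, with a median of -0.35. The lysyl hydroxylase Plod1 fell by 1.41 ± 0.09 (SE, adjusted p = 1.92e-05), the prolyl hydroxylase subunit P4ha2 by 1.18 ± 0.08 (SE, adjusted p = 1.43e-05), P3h1 by 0.88 ± 0.10 (SE) and the cross-linking oxidase Lox by 0.85 ± 0.07 (SE). On the most variable probe set of each, P3h1 differed by -1.09 and Lox by -1.40, with Plod1 and P4ha2 unchanged. These 4 also passed with the covariate, under which 6 of the 22 did. Their decreases were smaller than that of Col14a1, and that of Plod1 was close to that of Col13a1.

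Markers of fascia and adventitial fibroblasts, in which Col14a1 is also prominent, were counted separately. Of 12 measured, 4 rose, 1 fell and 7 did not pass (median 0.16). Efhd1 rose by 1.43 ± 0.18 (SE, adjusted p = 5.64e-04), Pi16, the marker by which such cells are often named, by 0.96 ± 0.09 (SE, adjusted p = 1.44e-04), Sema3c by 0.63 ± 0.12 (SE, adjusted p = 0.0052) and Gfpt2 by 0.63 ± 0.10 (SE, adjusted p = 0.00261). Clec3b fell by 0.47 ± 0.09 (SE, adjusted p = 0.00546). Dpp4 (0.17), Mfap5 (0.04) and Ly6c1 (-0.01) did not pass. Efhd1 passed with the covariate (2.20), and the other 4 did not.

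**Figure D5:**
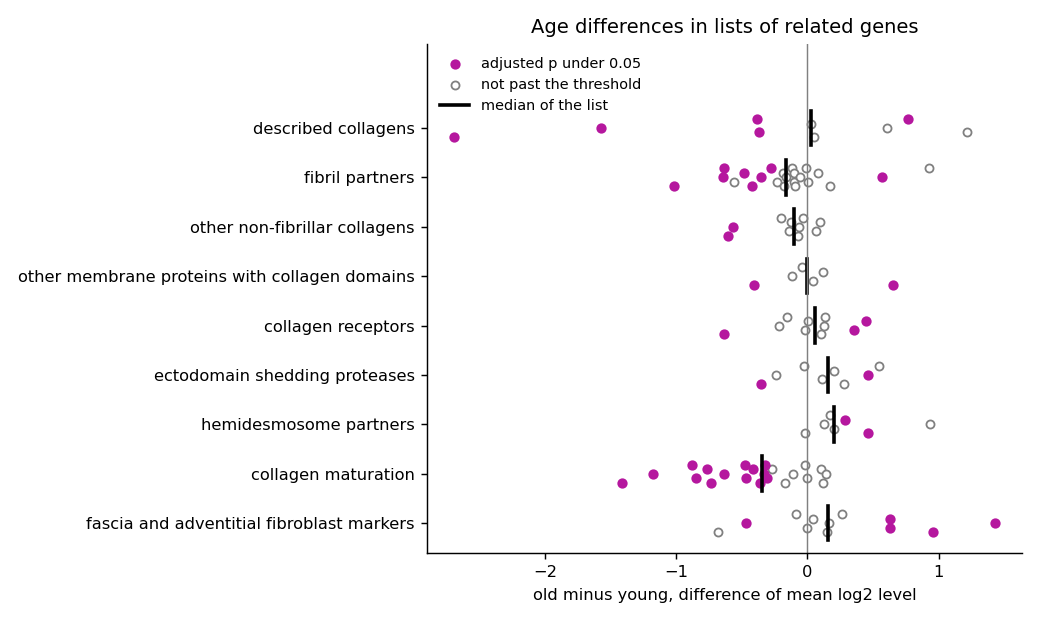
Difference between mean log2 levels of old and young arrays (horizontal axis) for every measured gene of the described collagens and of 8 lists of related genes; filled points have an adjusted p under 0.05, open points do not, and bars mark list medians. Collagen maturation has its 14 filled points below 0, and Col14a1, at -2.69, lies farthest from 0 of all points.

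Markers of other cells that could carry these collagens were compared in the same way. Of 9 endothelial markers 2 rose and 1 fell, with Tek at 1.73 (adjusted p = 0.00111), Tie1 at 0.35 (adjusted p = 0.0379) and Egfl7 at -0.30 (adjusted p = 0.0333), and Kdr, the brightest probe set, at 0.14. Tie1 lost its call when any 1 of 6 arrays was left out and Egfl7 with any 1 of 5, with adjusted p up to 0.1 and 0.0894. Of 6 mural markers 1 rose, 0 fell by limma and 3 had an unadjusted p under 0.05, all higher in old. Of the 6 differences 5 were above 0 (median 0.48, highest 1.20). Kcnj8 rose by 0.64 (adjusted p = 0.0429), a call lost when any 1 of 7 arrays was left out (adjusted p up to 0.106). Of 8 tendon and cartilage markers, the tendon factor Mkx rose by 1.10 (adjusted p = 0.00194), while Tnmd, the brightest probe set, differed by -0.47 (adjusted p = 0.189). Of 9 macrophage and leukocyte markers 2 rose and 1 fell, and 8 of the 9 differences were above 0 (median 0.09). Lyz2, the lysozyme of myeloid cells, rose by 1.08 (adjusted p = 0.00155) and the adaptor Tyrobp by 0.67 (adjusted p = 0.0148), whereas Csf1r, the receptor of macrophage growth factor, fell by 1.92 on the log2 scale (adjusted p = 5.9e-06). Of 7 Schwann cell and melanocyte markers Mlana fell by 0.56 on the log2 scale, with Sox10 at -0.06, and of 8 dermal papilla and sheath markers Tnn rose by 0.34, with Crabp1 at -0.21. The calls of Mlana and Tnn were each lost when any 1 of 5 arrays was left out, with adjusted p up to 0.0716 and 0.0891. The means of Mlana, 4.90 in young and 4.33 in old, lay below 5.66, the 90th percentile of the tissue-restricted genes. With the covariate Tek (adjusted p = 0.0173) and Csf1r (adjusted p = 0.00643) still passed, and Tie1, Egfl7, Kcnj8, Mkx, Lyz2, Tyrobp, Mlana and Tnn did not (adjusted p from 0.191 to 0.96). In that fit 1 mural marker other than Kcnj8 passed. By limma 0 of 6 mast cell and 0 of 4 adipocyte markers passed, and 0 of either had an unadjusted p under 0.05, the adipocyte genes Lep and Lipe differing by 0.06 and -0.06, and the mast cell genes Kit and Cma1 by 0.10 and 0.04. Of these lists, the endothelial score was highest in old replicates 2, 3 and 4, and the mural score lay between 0.12 and 0.51 in old against -0.31 to -0.10 in young. Their part in the levels of Col8a1, Col8a2 and Col12a1 was not tested.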

How the data were processed

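Per the labels' protocols, total RNA from sorted cells was amplified and hybridised to 1 array per mouse. RMA and affy are named in the submitters' processing notes, and their versions are not given in the sources used here. The values the authors deposited are log2 probe set summaries, rounded to 2 decimals. RMA equalises the arrays, so a change common to most transcripts does not show, and differences near background are compressed. The number of arrays limits the precision. Array medians lay between 5.19 and 5.34.

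Platform annotation gave 28898 of 45141 probe sets 1 symbol, and the others were not used for named genes. Symbols were updated by gene ID. For each of 17097 genes, limma (version 3.58.1, under R 4.3.3) fitted age alone, and its moderated 2-sided p-values, computed here, were adjusted by Benjamini and Hochberg's method. The threshold was 0.05, and the script was tested on simulated data. Figures used matplotlib 3.10.9. The collagens and all gene lists were chosen with earlier results of these data known. Named list members are up to 4 past the threshold with the largest difference, or that of smallest p where fewer than 2 passed, and for marker lists the brightest and that of smallest p. Other list members named were chosen after their values were seen. Alternatives covered a replicate block, scaling, dim genes, probe set choice, the variance model, array weights, thresholds, the background covariate and leaving out each array.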

Additional observations from a re-analysis of the deposited data

Results flagged for a closer look

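In a screen of 200 groups of 4 arrays, 6 had 1 array apart from the other 3 by the size of its gap. This is fewer than the rate of about 1 in 20 that chance gives. On old replicate 4 Thbs2 lay at 11.82, against 11.58 to 11.61 on the other old arrays, and Slc6a2, a gene with a profile like that of Col14a1, at 6.92, against 6.61 to 6.64. The same array had Epcam at 4.99, against 4.43 to 4.48, and Col19a1 at 4.44, against 4.09 to 4.14. On old replicate 2 Comp lay at 4.09, against 4.36 to 4.41 on the other old arrays. On young replicate 1 Kdr lay at 6.02, against 7.81 to 7.89 on the other young arrays. None of the 9 collagens or their other probe sets stood apart in this way.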

How the results depend on the processing

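Of all genes 2998 passed the threshold, and of the collagens 5. With the background covariate these counts were 167 and 1, and at an adjusted p of 0.01 they were 1436 and 2. Of 98 genes in the related lists 38 passed, and 9 with the covariate. The change of Col12a1 minus Col14a1 was 2.33 with the covariate, against 3.46. Leaving out single arrays gave 2201 to 2928 genes, 4 to 6 collagens, 33 to 40 list genes and changes of 3.13 to 3.89. Under the other alternatives run, all 4 results stayed within 1.5 times, or 1 SD for the change.

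Each collection day took 1 animal of either age, but no label ties the specimen numbers to days, so whether the numbers pair the arrays is not settled and they were not used as pairs. Deviations of same-numbered arrays correlated at 0.28, 0.05, -0.04 and 0.22; young replicates 1 and 4 correlated best with their own number, and young replicate 2 with old replicate 3 (0.15). With the replicate block 3106 genes, 6 collagens and 43 list genes passed, Col17a1 being the collagen added, and the change of Col12a1 minus Col14a1 was 3.46. With dim genes left out, Col12a1, Col8a1 and Col8a2 had no value. Of 53 other named genes past the threshold 40 lost their call with the covariate and 12 without at least 1 array. Of these 53, Trp63 alone reversed, to 0.175 on its most variable probe set (adjusted p = 0.514). The index shares most of its variation with age, and the cause of the lost calls was not tested.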

Other observations

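Tnc, an adhesive glycoprotein of the fibre surface, was picked out after its values were seen. It lay at 4.51, 4.61, 4.35 and 4.49 in young and at 6.40, 4.60, 4.47 and 6.21 in old, a difference of 0.93 (adjusted p = 0.156). With the covariate the limma difference of Tnc was -0.60 (adjusted p = 0.784). Its young values and those of old replicates 2 and 3 lay near the tissue-restricted genes. Old replicates 1 and 4, in which Tnc was high, also had the highest Col12a1 values of all arrays, 5.21 and 5.14. Old replicate 3, with Tnc at the level of the young arrays, had Col12a1 at 4.90. Col8a2 was high in old replicates 2 and 4 instead, so the old animals differed in which of these 3 genes was raised. These are values of single animals, and no test was made of them.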
